A study of Mus musculus with 24 samples.

Results

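The 10 genes described here encode the 4 tissue inhibitors of metalloproteinases (Timp1, Timp2, Timp3 and Timp4), 4 matrix metalloproteinases (Mmp2, Mmp9, Mmp3 and Mmp14) and 2 proteases of the ADAMTS family (Adamts1 and Adamts4). They were chosen by name, with earlier results of these data known, and all 10 were among the 18647 genes of the deposited count table. RNA was measured in hippocampal CA1 tissue, microdissected from adult C57Bl/6N mice of at least 60 days, in 24 libraries with 3 libraries in each of 8 groups. Mice of the SE groups received 335 mg/kg pilocarpine after 1 mg/kg scopolamine methyl nitrate, developed status epilepticus (SE, a prolonged seizure), were given 4 mg/kg diazepam, and were sampled at 6, 12, 24, 36 or 72 h. Control (Ctr) mice had scopolamine methyl nitrate and diazepam too, with saline in place of pilocarpine, and were sampled at 12, 36 or 72 h, so SE 6 h and SE 24 h were set against the 3 control groups averaged. Pilocarpine-injected mice without SE were left out by the study. The labels do not state that the libraries came from separate animals, so p-values measure the spread between these libraries.

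Matrix metalloproteinases and ADAMTS proteases are zinc enzymes that cut proteins of the extracellular matrix and of the cell surface. TIMPs bind in the active site of matrix metalloproteinases and can block them. In the brain the substrates include the lectican proteoglycans of the perineuronal net, a matrix coat around some neurons, and the basal lamina of blood vessels, and both kinds of structure are known to be remodelled after seizures. The messenger RNA of a protease does not give its activity, because most of these enzymes are made as inactive precursors.

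Library totals ranged from 2663936 to 30133731 counts (median 13521590), with the lowest in Ctr 72 h replicate 3. Markers of CA1 pyramidal cells (5 of 5 in the table) summed to between 302 and 1440 CPM (counts relative to the library size, which was scaled by TMM) over the libraries. Dentate granule cell markers (4 of 4) summed to between 3.75 and 234 CPM, with the lowest sum in Ctr 72 h replicate 2 and the highest in an SE 72 h library. Markers of sensory ganglion and peripheral nerve (7 of 8 in the table), which CA1 should lack, summed to 1704 CPM in Ctr 72 h replicate 2, 941 and 500.5 CPM in SE 72 h replicates 1 and 2, 847 CPM in SE 36 h replicate 3, 639 CPM in SE 12 h replicate 1 and 318 CPM in SE 6 h replicate 3, and to between 3.52 and 68.6 CPM in the other 18 libraries. Ctr 72 h replicate 2 also held the most fibroblast marker RNA of all libraries, at 342 CPM, against 54.6 to 223 CPM in the others. All comparisons were also fitted without these 6 libraries, and calls among the 10 genes that were lost or gained are given with each gene.

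A gene counted as changed against control if edgeR's quasi-likelihood test gave a Benjamini-Hochberg adjusted p of at most 0.05 over 18153 genes and a log2 fold change (log2FC) of at least 0.66 in size, the threshold of the study. Beside a term for each group the fit held 1 RUVr factor, a covariate that takes up unwanted variation left in the residuals. Its value was -0.797 in Ctr 72 h replicate 2 and 0.383 and 0.374 in Ctr 72 h replicates 1 and 3. In every other library it lay between -0.136 and 0.102, so it mainly set Ctr 72 h replicate 2 apart from its own group. Without the factor Mmp2 and Adamts4 no longer passed at 72 h (log2FC 0.82 and 0.71), while the others of the 10 genes that rose then still did. All 10 genes passed the filter on low counts, but Timp1 and Mmp3 did so only through the SE libraries, so that they had to be higher after SE to be tested and the counts are also given for the other 8. At 12 h, 5 of the 10 genes rose and 1 fell, where 13.9% of all genes tested rose and 11.4% fell (25.2% in all). At 36 h, 5 rose and none fell (12.7% and 8.91% of all genes, 21.6% together). At 72 h, 7 rose and none fell (15.2% and 4.21%, 19.4% together). At 6 h, 5 rose and none fell (15.8% and 6.21%, 22% together), and at 24 h 5 rose and 2 fell (14.9% and 9.21%, 24.1% together). The median log2FC of the 10 genes lay between 0.64 at 36 h and 1.41 at 72 h in the 5 comparisons, and that of all genes tested between 0.00 and 0.10. Of the 8 genes that passed the filter on the controls alone, 3 rose at each of 6, 12, 24 and 36 h and 5 at 72 h, 1 fell at 12 h and 2 at 24 h, and their median log2FC ran from -0.22 at 24 h to 1.15 at 72 h. The SE and control libraries of the same time did not overlap in 7 of the 10 genes at 12 h, 6 at 36 h and 5 at 72 h, and in 47.7%, 51.9% and 32.8% of all genes. The SE libraries did not overlap the 9 controls in 5 genes at 6 h and 6 at 24 h, and in 22.2% and 23.6% of all genes. Without Timp1 and Mmp3, which the filter favours, 5, 4, 3, 3 and 4 of the other 8 genes lacked overlap (order 12, 36, 72, 6 and 24 h). For these 8 genes the shares at 36 and 72 h were near those of all genes, while the remaining shares were higher. In Timp1, Mmp3, Mmp14 and Adamts1 all 15 SE libraries lay above all 9 control libraries, a pattern that 3.03% of all genes showed and that the filter favours in Timp1 and Mmp3. In pairs of control groups none of the 10 genes changed by edgeR's quasi-likelihood test, by DESeq2 or by limma-voom, and between 1 and 2 of them had an unadjusted p under 0.05 by edgeR in each pair. Of all genes 0% changed between Ctr 12 h and Ctr 36 h, 0.931% (0.325% higher and 0.606% lower) in Ctr 72 h against Ctr 12 h, and 1.97% (0.711% higher and 1.26% lower) in Ctr 72 h against Ctr 36 h.

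**Figure D1:**
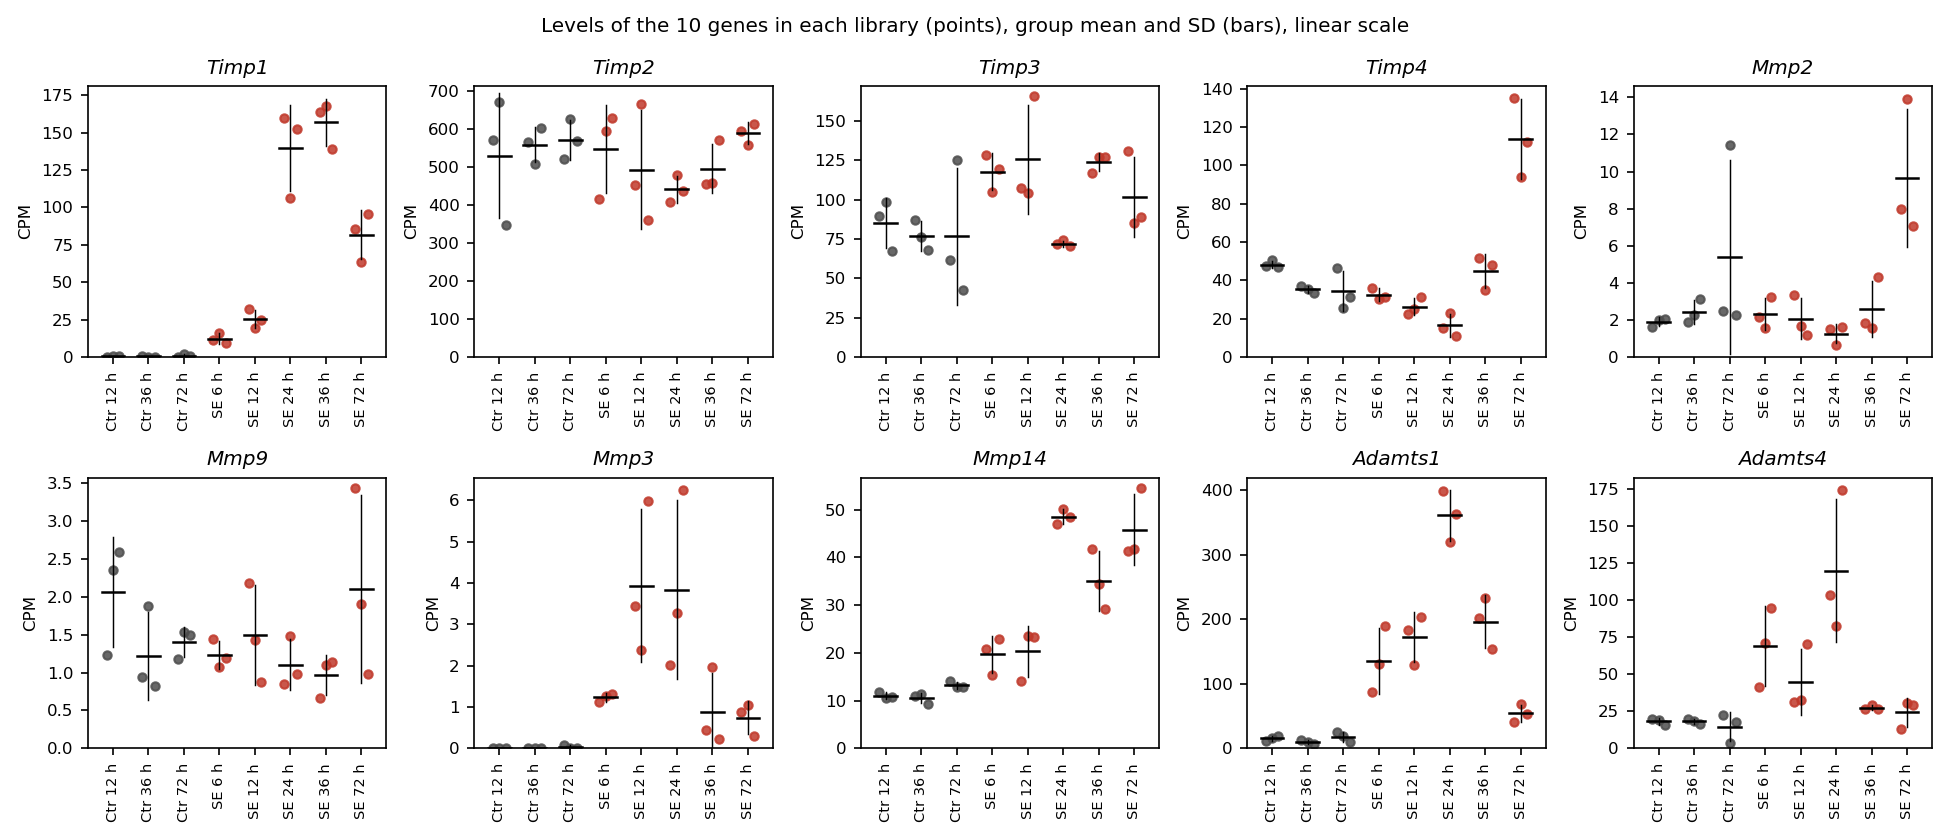
TMM-scaled CPM (linear axes from 0) of the 10 genes in each of the 24 libraries, with controls in grey, SE in red, horizontal lines at the group means and vertical lines for 1 SD on each side, cut at 0. Timp1 reached 139 to 168 CPM at SE 36 h against 0 to 2.05 CPM in the controls, Timp4 was highest at SE 72 h, and Adamts1 and Adamts4 were highest at SE 24 h.

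**Figure D2:**
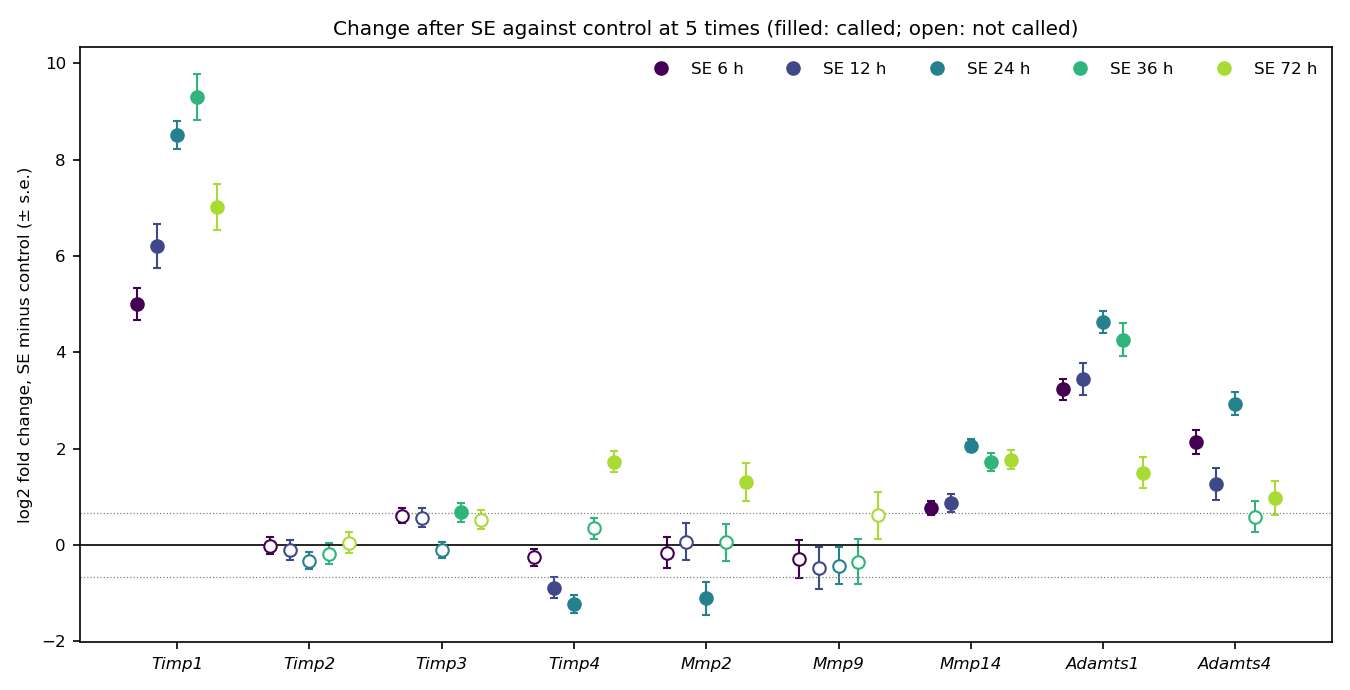
Fitted log2FC with its standard error for 9 of the 10 genes in SE against control at 5 times. Filled points passed the test, open points did not, and dotted lines mark 0.66 in either direction. Mmp3 is left out because its value depends on the prior count where control groups are at 0. Timp1 has the largest values at every time, and Timp2 and Mmp9 have open points only.

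Timp1 (ENSMUSG00000001131.12) encodes the inhibitor of this family that is known to be induced by injury and by cytokines. It lies on chrX:20736316-20740976 (GRCm39, plus strand). The control libraries held 43 Timp1 counts in all. Their levels were 0.0946, 0.553 and 0.309 CPM at 12 h, 0.575, 0.157 and 0 CPM at 36 h, and 0.169, 2.05 and 0.375 CPM at 72 h, the highest being that of Ctr 72 h replicate 2. After SE the levels were 11.6, 16 and 9.30 CPM at 6 h and 31.8, 19.3 and 24.9 CPM at 12 h. They were 160.1, 107 and 153 CPM at 24 h, 164, 168 and 139 CPM at 36 h, and 85.9, 63.8 and 95.7 CPM at 72 h. Each SE group lay wholly above the controls, and the groups of neighbouring times did not overlap except 24 and 36 h. The log2FC against the controls of 12, 36 and 72 h was 6.21 ± 0.45, 9.30 ± 0.48 and 7.02 ± 0.48 (± s.e., n = 3 per group), and edgeR's quasi-likelihood test gave adjusted p of 9.75e-09, 9.88e-11 and 2.97e-09. Here and below, each s.e. was derived from that test in the fit of all 24 libraries, not from the compared libraries alone. It was 5.01 ± 0.33 at 6 h and 8.52 ± 0.29 at 24 h relative to the averaged control groups (adjusted p = 1.11e-09 and 4.39e-14, same test). Because the controls held so few counts, the size of these folds is less certain than their direction: the ratio of pooled counts at 36 h was 638 with a 95% counting interval from 356 to 1278, and the fitted log2FC at 72 h was 8.56 without Ctr 72 h replicate 2.

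Between neighbouring times after SE, where a gene had to change by a log2FC of at least 1, Timp1 rose from 12 to 24 h by 2.48 ± 0.30 (adjusted p = 0.000102, edgeR's quasi-likelihood test). The step from 6 to 12 h was 1.03 ± 0.30 with adjusted p = 0.0529 (1.06 and 0.023 without Ctr 72 h replicate 2), and the step from 36 to 72 h was -0.94 ± 0.28 with adjusted p = 0.0374, under the size threshold. The SE effect on Timp1 at 36 h exceeded that at 12 h by 3.09 ± 0.88, which did not pass the test (adjusted p = 0.0526, edgeR's quasi-likelihood test). Over the alternatives to this fit the adjusted p of that difference ran from 0.000741 to 0.8, and the difference passed without the 6 libraries with high sensory ganglion markers (3.37, adjusted p = 0.015) and without Ctr 72 h replicate 2 (3.07, adjusted p = 0.0346).

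Timp2 (ENSMUSG00000017466.10) encodes an inhibitor that is made without injury and that, with membrane-type MMPs, takes part in the activation of the Mmp2 precursor. The gene spans chr11:118191887-118246566 (minus strand). It was measured at 347 to 669 CPM in the controls and lay between 361 and 665 CPM after SE. The SE range lay within the control range at all times. The log2FC lay between -0.32 at 24 h and 0.05 at 72 h, and Timp2 did not pass the test at any time or between any SE times. The 95% interval of the 12 h log2FC ran from -0.56 to 0.35, that of 36 h from -0.63 to 0.28 and that of 72 h from -0.41 to 0.51.

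Timp3 (ENSMUSG00000020044.14) encodes the inhibitor that binds to the matrix and also blocks ADAM and ADAMTS proteases. It is found at chr10:86136236-86185371 (plus strand). Control levels were 89.7, 98.4 and 67.5 CPM at 12 h, 86.8, 76.4 and 67.6 CPM at 36 h, and 61.9, 125 and 42.4 CPM at 72 h. Those after SE were 128, 105 and 119 CPM at 6 h, 107, 104 and 166 CPM at 12 h, 71.7, 74.0 and 70.2 CPM at 24 h, 117, 127 and 127 CPM at 36 h, and 131, 85.2 and 89.1 CPM at 72 h. SE libraries lay above their own controls at 12 and 36 h, lay within the control range at 24 h, and overlapped the controls at 72 h, where Ctr 72 h replicate 2 was the high control. Timp3 rose at 36 h, with a log2FC of 0.69 ± 0.20 (adjusted p = 0.0111, edgeR's quasi-likelihood test). At 12 h the log2FC was 0.57 ± 0.20 (adjusted p = 0.0271) and at 6 h 0.61 ± 0.16 (adjusted p = 0.00424), both under the size threshold. The 6 h value passed without the 6 libraries with high sensory ganglion markers (0.73, adjusted p = 0.00425) and without Ctr 72 h replicate 2 alone (0.74, adjusted p = 0.000959). At 72 h it was 0.53 ± 0.20 with adjusted p = 0.0557, and without Ctr 72 h replicate 2 it was 0.94 with adjusted p = 0.00553 (edgeR's quasi-likelihood test). The call at 36 h was lost in 4 of 38 alternatives, among them the fits without the RUVr factor (adjusted p = 0.0576) and without Ctr 36 h replicate 3 (adjusted p = 0.0567).

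Timp4 (ENSMUSG00000030317.9) encodes an inhibitor known for its expression in brain and heart. It lies at chr6:115187773-115229336 (minus strand). Control levels were 47.3, 50.4 and 46.9 CPM at 12 h, 37.3, 35.2 and 33.4 CPM at 36 h, and 46.2, 25.6 and 31.5 CPM at 72 h. The SE libraries measured 36.2, 30.3 and 31.2 CPM at 6 h, 22.6, 25 and 31.3 CPM at 12 h, 15.3, 23.1 and 11.1 CPM at 24 h, 51.5, 34.8 and 47.9 CPM at 36 h, and 135, 93.9 and 112 CPM at 72 h. So the 3 libraries of SE 12 h lay below, and those of SE 72 h above, their own controls, while SE 36 h overlapped them. Timp4 fell by 0.88 ± 0.21 on the log2 scale at 12 h (adjusted p = 0.00281, edgeR's quasi-likelihood test) and fell by 1.22 ± 0.19 at 24 h relative to the averaged control groups (adjusted p = 3.55e-05). It rose at 72 h by 1.73 ± 0.22 (adjusted p = 6.9e-06, same test). At 6 h the log2FC was -0.25 ± 0.18 (adjusted p = 0.266) and at 36 h 0.35 ± 0.21 (adjusted p = 0.23). The step from 24 to 36 h was a rise of 1.43 ± 0.22 and that from 36 to 72 h one of 1.35 ± 0.21, for which edgeR's quasi-likelihood test gave adjusted p of 0.00315 and 0.00048.

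Whether the SE effect changed with time was tested for all 10 genes, and Timp4 was the gene in which all 3 comparisons of times passed. Its effect at 36 h exceeded that at 12 h by 1.23 ± 0.30, the effect at 72 h exceeded that at 12 h by 2.61 ± 0.31, and the effect at 72 h exceeded that at 36 h by 1.38 ± 0.30, with adjusted p of 0.0287, 1.86e-05 and 0.0138 (edgeR's quasi-likelihood test). The first of these did not pass in 10 of 36 alternatives, and its value lay between 1.04 and 1.48 over all 36. Without the 6 libraries with high sensory ganglion markers the last difference was 1.21 with adjusted p = 0.112 (edgeR's quasi-likelihood test).

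Each of these inhibitor genes except Timp2 lies inside a synapsin gene, which encodes a protein of synaptic vesicles, on the opposite strand. Timp1 lies inside Syn1 without shared exonic bases, Timp3 inside Syn3 with 1734 shared exonic bases (21.3% of the exonic bases of Timp3), and Timp4 inside Syn2 with 1142 (14.7%). The counting ignored strand, so reads from shared exonic bases cannot be assigned to 1 gene of such a pair. Syn2 fell at 12, 36 and 72 h, with log2FC of -0.88, -1.32 and -0.75, and at 24 h (-0.80). Syn2 and Timp4 thus both fell at 12 and 24 h and moved in opposite directions at 72 h. Whether the overlap raised or lowered the Timp4 values was not tested. Syn1 and Syn3 did not pass the test at any of the 5 times.

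To compare the inhibitors with each other, CPM were divided by the length of the canonical transcript in kb, with no correction for exonic bases shared with other genes. On this scale Timp2 made up 80.1% to 91.0% of the summed level of the 4 Timp genes in the 9 control libraries, and Timp1 0% to 1.09%. The share of Timp1 was 7.01% ± 1.97 (SD, n = 3) at SE 6 h and 14.7% ± 4.96 at SE 12 h. It reached 52.0% ± 7.40 at SE 24 h and 50.2% ± 5.24 at SE 36 h, and was 30.3% ± 3.24 at SE 72 h. The Timp1 share exceeded that of Timp2 in 2 of 3 libraries at 24 h and in 2 of 3 at 36 h, and in no library of the other groups. The summed level was 172 ± 11.9 CPM per kb in Ctr 36 h and 334 ± 2.54 CPM per kb in SE 36 h, and 176 ± 21.3 in Ctr 72 h and 286 ± 29.9 in SE 72 h, with no overlap between the groups at either time. At 12 h the sums overlapped (168 ± 47.8 and 189.7 ± 31.5 CPM per kb). With 3 libraries against 3, an exact two-sided permutation test of such a sum cannot go below p = 0.1.

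**Figure D3:**
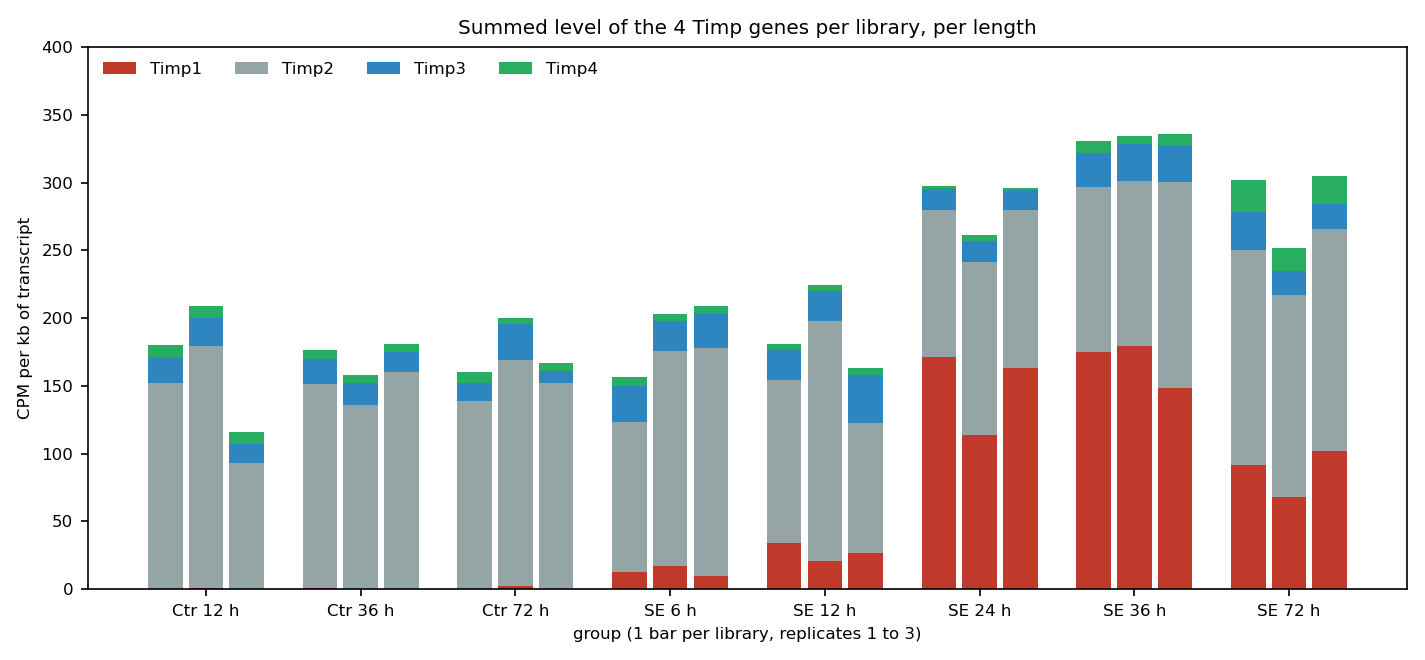
Summed level of Timp1, Timp2, Timp3 and Timp4 in each of the 24 libraries (1 bar each, 3 bars per group), in CPM per kb of canonical transcript. Timp1 (red) is barely visible in the controls and makes up 43.6% to 57.4% of the bars at SE 24 h and 44.2% to 53.5% at SE 36 h, while the Timp2 segment (grey) runs from 92.6 to 179 CPM per kb over the 24 bars.

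The gelatinases Mmp2 and Mmp9 cut denatured collagen and the collagen of basal laminae. Mmp2 (ENSMUSG00000031740.9) lies at chr8:93553902-93580049 (plus strand), and 860 of its exonic bases (24.3%) are shared with an antisense long non-coding RNA, Gm45472. Mmp2 levels in the controls were 1.61, 2.00 and 2.05 CPM at 12 h, 1.87, 2.24 and 3.12 CPM at 36 h, and 2.45, 11.4 and 2.25 CPM at 72 h. After SE the gene stayed between 0.653 and 4.33 CPM from 6 to 36 h, and measured 7.99, 13.9 and 7.06 CPM at 72 h. The high control was again Ctr 72 h replicate 2, and SE 72 h overlapped the controls through that library alone. In every group with a library high in sensory ganglion markers, such a library held the most Mmp2. Before 72 h these were SE 6 h replicate 3 (3.23 CPM), SE 12 h replicate 1 (3.33 CPM) and SE 36 h replicate 3 (4.33 CPM). In SE 72 h it was replicate 2, although replicate 1 held more of these markers. The part of such RNA in the Mmp2 levels was not tested. Mmp2 rose at 72 h by a log2FC of 1.32 ± 0.39 (adjusted p = 0.0164, edgeR's quasi-likelihood test), and by 2.01 without that control library (adjusted p = 0.012). The call was lost in 7 of 38 alternatives, among them the fits without the RUVr factor (log2FC 0.82, adjusted p = 0.312), without SE 72 h replicate 2 (0.98, adjusted p = 0.0925), without Ctr 72 h replicate 1 (0.99, adjusted p = 0.138), without Ctr 72 h replicate 3 (0.99, adjusted p = 0.0935), and without all 6 libraries with high sensory ganglion markers (1.57, adjusted p = 0.0509, with 1 SE 72 h library left). From 36 to 72 h after SE the gene rose by 1.94 ± 0.38 (adjusted p = 0.0027, edgeR's quasi-likelihood test), and this step passed in 36 of 37 alternatives, the exception being the fit of the compared groups alone. Mmp2 fell by 1.11 ± 0.35 at 24 h relative to the averaged control groups (adjusted p = 0.0157), where the SE libraries held 14 to 23 counts. That call was lost in 6 of 38 alternatives, among them without SE 24 h replicate 2 (log2FC -0.75, adjusted p = 0.122) and without Ctr 72 h replicate 2 (-0.90, adjusted p = 0.0933).

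Mmp9 (ENSMUSG00000017737.3) was low in all groups, at 0.822 to 2.59 CPM in the controls and 0.667 to 3.43 CPM after SE. It lies at chr2:164780439-164797771 (plus strand). The highest level was in SE 72 h replicate 1 and the lowest in SE 36 h replicate 1, and each group overlapped its controls. Its log2FC at 12, 36 and 72 h was -0.47 ± 0.44, -0.34 ± 0.47 and 0.62 ± 0.49, and edgeR's quasi-likelihood test gave adjusted p of 0.421, 0.622 and 0.382. The 95% interval at 72 h ran from -0.44 to 1.67 and that at 12 h from -1.42 to 0.47, and both include a change of 1 log2 unit. The libraries held 4 to 67 Mmp9 counts each.

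Mmp3 (ENSMUSG00000043613.9) encodes stromelysin-1, which cuts many matrix proteins and activates precursors of other MMPs. It lies at chr9:7445822-7455975 (plus strand). The 9 control libraries held 1 Mmp3 count in all, in Ctr 72 h replicate 1. The 15 SE libraries all held counts, at 1.12, 1.27 and 1.32 CPM at 6 h, 3.43, 2.39 and 5.98 CPM at 12 h, 2.02, 3.27 and 6.24 CPM at 24 h, 0.445, 1.97 and 0.228 CPM at 36 h, and 0.888, 1.05 and 0.292 CPM at 72 h. SE 12 h and SE 24 h were thus the highest groups and overlapped each other, while SE 36 h and SE 72 h overlapped each other below them. Mmp3 rose at 12 and 36 h (adjusted p = 4.24e-05 and 0.00181 by edgeR's quasi-likelihood test), at least 19.4-fold and at least 4.27-fold against a floor of 3 counts per control library. At 6, 24 and 72 h the controls held the 1 count, so a ratio of pooled counts with its 95% counting interval is given, which is not on the same footing as those bounds. It was 146 (25.2 to 5866), 457 (81.0 to 18150) and 13.6 (2.27 to 554), with adjusted p of 3.21e-05, 5.71e-07 and 0.037 (edgeR's quasi-likelihood test). The call at 72 h was lost in 10 of 37 alternatives, among them each omission of Ctr 72 h replicate 1, 2 or 3 (adjusted p = 0.0994, 0.104 and 0.0657) and of SE 72 h replicate 1 or 2 (adjusted p = 0.0725 and 0.0785). Without all 6 libraries with high sensory ganglion markers the adjusted p at 72 h was 0.454. The call at 36 h was lost with counts thinned to the smallest library (adjusted p = 0.0739).

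The 250 bases before the start of the canonical transcript of each gene (GRCm39) were searched on both strands for the motifs of AP-1 (TGANTCA), CRE (TGACGTCA), STAT (TTCNNNGAA) and NF-kB. This start can lie inside the annotated gene, as it does for Mmp9, whose window is within the span given above. Annotated exons of the same gene held 187 bases of the Timp2 window, 69 of Timp4, 35 of Timp1 and 4 of Adamts4. Of 15224 such windows of protein-coding genes tested, 4.82% held the AP-1 motif, 1.97% CRE, 6.61% STAT and 4.58% NF-kB. Among the 10 genes, Mmp3 and Mmp9 held 1 AP-1 match each, and none of the other 3 motifs was found in any of the 10 windows. The sequences of both genes are shown, 5′ to 3′ on the coding strand and with the AP-1 match in capitals, because Mmp3 rose at all 5 times while Mmp9 passed the test at none. The window of Mmp3 is chr9:7445572-7445821 with the match starting 46 bases before the start, and that of Mmp9 is chr2:164789889-164790138 with the match starting 69 bases before it.
Mmp3: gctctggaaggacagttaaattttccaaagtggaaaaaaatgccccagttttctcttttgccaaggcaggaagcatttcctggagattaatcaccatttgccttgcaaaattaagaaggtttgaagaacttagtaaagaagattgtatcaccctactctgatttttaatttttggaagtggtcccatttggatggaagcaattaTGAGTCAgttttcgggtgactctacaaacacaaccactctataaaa
Mmp9: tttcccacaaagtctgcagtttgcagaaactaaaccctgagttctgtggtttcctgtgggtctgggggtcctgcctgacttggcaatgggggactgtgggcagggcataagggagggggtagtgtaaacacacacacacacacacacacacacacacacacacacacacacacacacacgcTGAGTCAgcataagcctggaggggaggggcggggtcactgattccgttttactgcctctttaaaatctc
Both matches read TGAGTCA on the coding strand. A match of letters is a description of the window, and nothing was measured here of a factor binding to it.

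Mmp14 (ENSMUSG00000000957.12) encodes a membrane-type MMP that cuts collagen at the cell surface and activates the Mmp2 precursor. It spans chr14:54668878-54682821 (plus strand). In the controls its levels were narrow, at 11.8, 10.6 and 10.7 CPM at 12 h, 10.9, 11.4 and 9.37 CPM at 36 h, and 14.1, 12.8 and 12.7 CPM at 72 h. After SE they were 20.8, 15.4 and 22.8 CPM at 6 h, 14.2, 23.5 and 23.3 CPM at 12 h, 46.9, 50.2 and 48.5 CPM at 24 h, 41.7, 34.5 and 29.2 CPM at 36 h, and 41.3, 41.7 and 54.5 CPM at 72 h. Every SE group lay above the controls, with a lower level at 6 and 12 h and a higher one from 24 h on. Mmp14 rose by a log2FC of 0.88 ± 0.18, 1.72 ± 0.19 and 1.78 ± 0.19 at 12, 36 and 72 h, with adjusted p of 0.000927, 7.85e-07 and 9.9e-07 by edgeR's quasi-likelihood test. It was 0.77 ± 0.15 at 6 h and 2.07 ± 0.14 at 24 h relative to the averaged control groups (adjusted p = 0.000335 and 3.67e-10). The 6 h value fell under the size threshold without SE 6 h replicate 3 (0.64) and without the 6 libraries with high sensory ganglion markers (0.63). Mmp14 rose from 12 to 24 h by 1.27 ± 0.18 (adjusted p = 0.000411), and its SE effect at 72 h exceeded that at 12 h by 0.90 ± 0.26 (adjusted p = 0.0199, edgeR's quasi-likelihood test). That difference did not pass in 3 of 36 alternatives, one of them without SE 72 h replicate 3 (0.76, adjusted p = 0.054). The effect at 36 h minus that at 12 h was 0.85 with adjusted p = 0.069, and 0.76 with adjusted p = 0.0348 without the 6 libraries with high sensory ganglion markers (edgeR's quasi-likelihood test).

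Adamts1 (ENSMUSG00000022893.15) encodes a secreted protease that cuts aggrecan and versican and is known as an early response gene. It lies at chr16:85590579-85600009 (minus strand). The controls measured 10.8, 16.6 and 19.2 CPM at 12 h, 13.3, 10.5 and 6.65 CPM at 36 h, and 24.9, 19.1 and 9.75 CPM at 72 h. Levels after SE were 87.7, 131 and 189 CPM at 6 h, 183, 129 and 204 CPM at 12 h, 398, 320.1 and 363 CPM at 24 h, 202, 233 and 153 CPM at 36 h, and 41.5, 68.0 and 52.8 CPM at 72 h. The 24 h libraries were above all others and the 72 h libraries below all other SE libraries, but above the controls. Adamts1 rose by a log2FC of 3.45 ± 0.33 at 12 h and 4.26 ± 0.35 at 36 h, and 2.84-fold at 72 h, with adjusted p of 2.65e-07, 2.24e-08 and 0.00182 by edgeR's quasi-likelihood test. Against the mean of the control groups it rose 9.38-fold at 6 h and 24.8-fold at 24 h (adjusted p = 2.94e-09 and 5.51e-12). It rose from 12 to 24 h by 1.07 ± 0.30 (adjusted p = 0.0308), a step lost without SE 12 h replicate 1 or 2 or SE 24 h replicate 1 or 3, with adjusted p from 0.051 to 0.11, and it fell by 1.86 ± 0.31 from 36 to 72 h (adjusted p = 0.000761, edgeR's quasi-likelihood test). The SE effect at 72 h was lower than that at 12 h by a log2FC of -1.95 ± 0.45 (adjusted p = 0.00458) and lower than that at 36 h by -2.76 ± 0.46 (adjusted p = 0.00276, edgeR's quasi-likelihood test).

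Adamts4 (ENSMUSG00000006403.14) encodes an aggrecanase that also cuts brevican, a lectican of brain matrix. It lies at chr1:171077986-171089841 (plus strand). Control levels were 19.9, 19 and 15.7 CPM at 12 h, 20.0, 18.3 and 16.8 CPM at 36 h, and 22.3, 3.92 and 18 CPM at 72 h, the low value being that of Ctr 72 h replicate 2. Those after SE were 41.4, 71.4 and 95.2 CPM at 6 h, 31.4, 33.0 and 70.4 CPM at 12 h, 104, 82.5 and 175 CPM at 24 h, 26.6, 29.4 and 26.6 CPM at 36 h, and 13, 30.3 and 29.6 CPM at 72 h. Of the 15 SE libraries 14 lay above all controls, and SE 72 h replicate 1 lay among them. Adamts4 rose 4.41-fold at 6 h and 7.65-fold at 24 h relative to the averaged control groups (adjusted p = 1.42e-06 and 8.28e-09 by edgeR's quasi-likelihood test), and by a log2FC of 1.27 ± 0.32 at 12 h (adjusted p = 0.0043). The 12 h call was lost in 2 of 38 alternatives, one of them without SE 12 h replicate 3 (0.83, adjusted p = 0.0633). At 36 h the log2FC was 0.59 ± 0.32 (adjusted p = 0.181). At 72 h it was 0.98 ± 0.36 with adjusted p = 0.0479, but 0.18 with adjusted p = 0.579 without Ctr 72 h replicate 2 (edgeR's quasi-likelihood test), and 22 of 38 alternatives lost the call. Without the 6 libraries with high sensory ganglion markers it was 0.52 with adjusted p = 0.0936. Without Ctr 72 h replicate 2 the SE effect on Adamts4 at 72 h was also lower than that at 12 h, with a difference of -1.03 (adjusted p = 0.0135, edgeR's quasi-likelihood test), against -0.29 (adjusted p = 0.709) with it. Without the 6 libraries with high sensory ganglion markers the effects at 36 and 72 h were lower than that at 12 h, with differences of -0.80 and -0.89 (adjusted p = 0.0273 and 0.0279), and with all libraries the former was -0.68 with adjusted p = 0.424 (edgeR's quasi-likelihood test). The gene rose by 1.47 ± 0.32 between 12 and 24 h and fell by 2.14 ± 0.33 between 24 and 36 h, for which edgeR's quasi-likelihood test gave adjusted p of 0.00839 and 0.00315. Each of these steps was lost in 3 of 37 alternatives, among them the fit without the RUVr factor (adjusted p = 0.0542 and 0.0509, same test).

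Between neighbouring times after SE, none of the 10 genes changed from 6 to 12 h (0.446% of all genes rose and 0.898% fell, 1.34% together), where 3 had an unadjusted p under 0.05 by edgeR's quasi-likelihood test and DESeq2 and limma-voom each called 1 gene. From 12 to 24 h 4 rose and none fell (1.47% of all genes rose and 1.72% fell, 3.18% together), namely Timp1, Mmp14, Adamts1 and Adamts4. From 24 to 36 h Timp4 rose and Adamts4 fell (0.347% and 0.182% of all genes, 0.529% together), and from 36 to 72 h Timp4 and Mmp2 rose and Adamts1 fell (3.08% and 1.05%, 4.13% together). The SE effect was higher at 36 than at 12 h in 1 of the 10 genes and lower in none (2.21% and 1.62% of all genes, 3.83% together). It was higher at 72 than at 12 h in 2 and lower in 1 (14% and 8.2%, 22.2% together), and higher at 72 than at 36 h in 1 and lower in 1 (3.92% and 1.43%, 5.35% together). Comparisons that share a group of libraries, as these steps do, are not independent of each other.

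The same tests were read for genes that act with these enzymes, in lists chosen by function, and their counts stand beside the shares of all genes given above (13.9%, 12.7%, 15.2%, 15.8% and 14.9% higher and 11.4%, 8.91%, 4.21%, 6.21% and 9.21% lower at 12, 36, 72, 6 and 24 h). The lists were not filtered on the controls alone. Genes that passed only through SE libraries, as Timp1 and Mmp3 did, would favour rises in these counts and medians. Candidates are Mmp12 and Mmp13 (0 CPM in Ctr 36 h), Serpinf2 and Plaur (0.0893 and 0.437 CPM in Ctr 36 h) and Lcn2 (0.382 CPM in Ctr 12 h). Of 19 other MMPs 12 were in the table. Of these 4 rose and 1 fell at 12 h, 3 rose and none fell at 36 h, 4 rose and none fell at 72 h, 5 rose and none fell at 6 h, and 4 rose and 3 fell at 24 h. Mmp19, an MMP made by many cell types, rose at all 5 times and went from 0.919 CPM in Ctr 72 h to 17.1 CPM in SE 72 h (log2FC 5.16, adjusted p = 1.16e-06, edgeR's quasi-likelihood test). Mmp12, the metalloelastase of macrophages, was at 0 CPM in Ctr 36 h and Ctr 72 h and at 3.67 CPM in SE 36 h (adjusted p = 4.35e-05). Mmp13, a collagenase, went from 0 CPM in Ctr 36 h to 0.689 CPM in SE 36 h, and Mmp11 from 1.21 CPM to 3.96 CPM at 72 h (adjusted p = 0.0201 and 0.000813 by edgeR's quasi-likelihood test).

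Of 17 other ADAMTS genes 16 were in the table. At 12 h 2 of them rose and 5 fell, at 36 h 2 rose and 2 fell, at 72 h none rose and 1 fell, at 6 h 3 rose and 2 fell, and at 24 h 4 rose and 3 fell. The 2 of 16 that rose at 12 and at 36 h are a share near that of all genes. Adamts9 and Adamts5, which also cut lecticans, rose to 35.0 CPM against 8.40 CPM at 12 h and to 8.61 CPM against 1.83 CPM at 36 h (adjusted p = 0.000613 and 0.00208 by edgeR's quasi-likelihood test). Of the procollagen-cutting members, Adamts14 fell by 2.86 at 12 h and Adamts2 fell by 2.71 at 36 h on the log2 scale (adjusted p = 0.00134 and 0.0024 by edgeR's quasi-likelihood test). The median log2FC of this list was -0.37, -0.11, -0.19, -0.26 and -0.37 in the order 12, 36, 72, 6 and 24 h. That of the MMP list was 0.90, 0.72, 0.72, 0.57 and 0.10 in the same order, and that of all genes lay between 0.00 and 0.10. Among 7 ADAM sheddases, which cut proteins off the cell surface, 3, 5, 4, 1 and 5 rose at these times and none fell, and the median log2FC of the list was 1.03 at 72 h. Adam8 showed the largest change of that list, from 4.68 to 39.5 CPM at 12 h, and Adam12 went from 4.92 to 25.2 CPM at 12 h.

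Plasmin activates MMP precursors, and 6 of 7 listed genes of plasminogen activation were in the table. At 12 h 4 rose and 1 fell, at 36 h 3 rose and 1 fell, at 72 h 5 rose and 1 fell, at 6 h 4 rose and none fell, and at 24 h 4 rose and 1 fell. The urokinase receptor gene Plaur rose from 0.437 to 18.1 CPM at 36 h (adjusted p = 9.51e-07, edgeR's quasi-likelihood test). The urokinase gene Plau rose from 1.64 to 12.0 CPM and Serpinf2, which encodes the inhibitor of plasmin, from 0.0893 to 8.36 CPM at 36 h. Serpini1, which encodes neuroserpin, an inhibitor of tissue plasminogen activator made by neurons, fell by 1.78 on the log2 scale at 36 h, from 301 to 87.7 CPM (adjusted p = 7.38e-06, edgeR's quasi-likelihood test). The median log2FC of this list was 1.57 at 12 h and 1.65 at 36 h. Of 9 partners and regulators of MMPs, 5, 6, 5, 5 and 6 rose at 12, 36, 72, 6 and 24 h, and none fell, with a median log2FC of 2.03 at 12 h. They included Cd44, a hyaluronan receptor that docks MMPs at the cell surface (2.96 to 321 CPM at 36 h). A2m, a broad protease inhibitor, went from 4.61 to 254 CPM at 72 h. Lcn2 went from 0.382 to 54.3 CPM and Thbs1, a matrix protein, from 3.24 to 28.4 CPM at 12 h.

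The 4 lecticans, substrates of Adamts1 and Adamts4, did not move in 1 direction. Bcan (brevican) fell by 3.15 on the log2 scale at 36 h, from 363 to 40.9 CPM (adjusted p = 4.75e-10, edgeR's quasi-likelihood test). Acan (aggrecan) rose from 3.54 to 29.2 CPM at 36 h (adjusted p = 0.00184), Ncan (neurocan) from 287 to 672 CPM and Vcan (versican) from 23.3 to 57.1 CPM at 72 h (adjusted p = 2.1e-06 and 1.29e-05 by edgeR's quasi-likelihood test). By list, 2 rose and 1 fell at 12 h, 3 rose and 1 fell at 36 h, 2 rose and 1 fell at 72 h, 1 rose and none fell at 6 h, and 3 rose and 1 fell at 24 h.

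**Figure D4:**
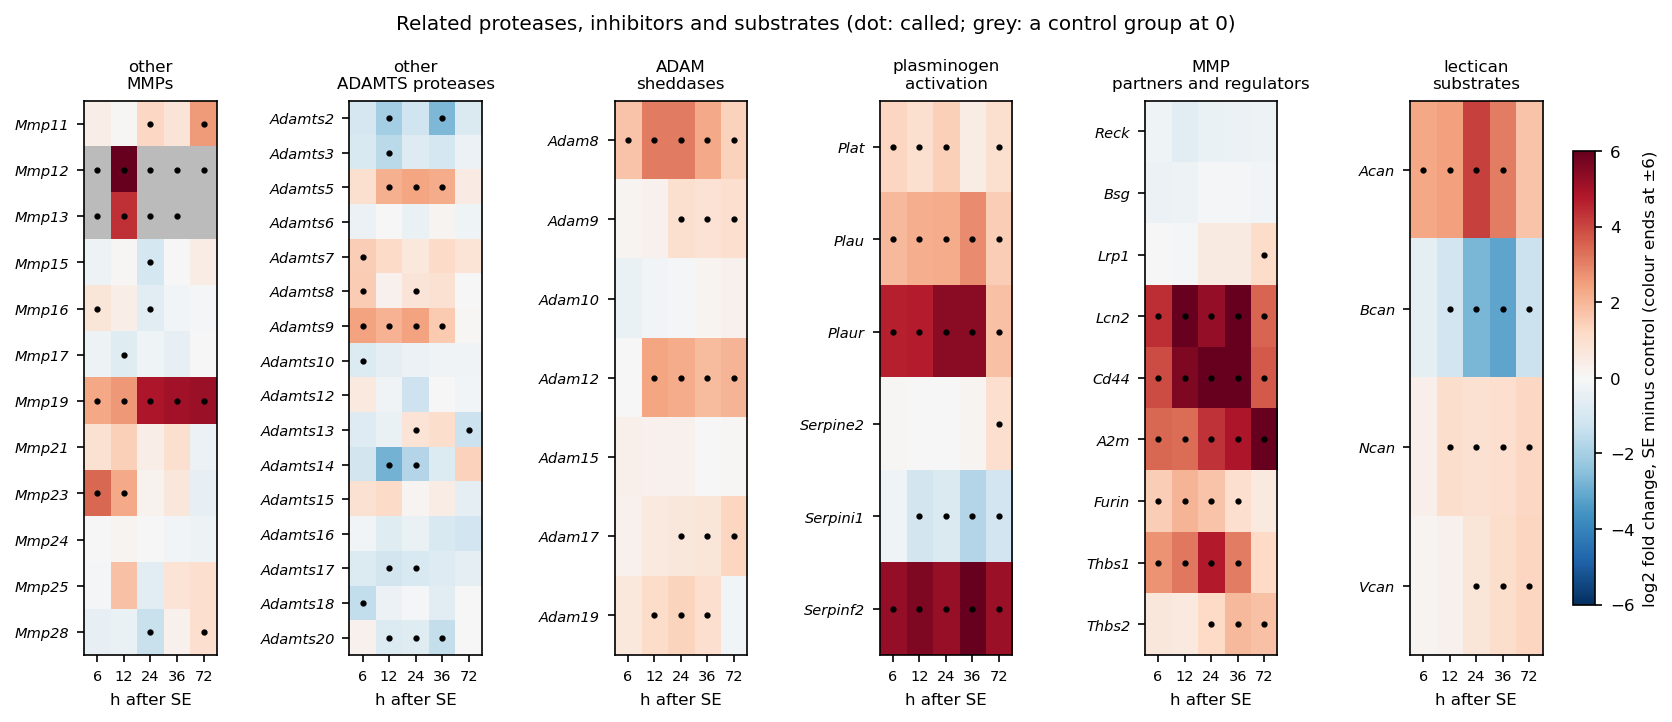
Fitted log2FC of SE against control at 5 times (columns, h after SE) for the tested genes of 6 lists, with red for higher and blue for lower, colour ending at 6 in either direction, dots for changes that passed the test, and grey where a control group was at 0. Plaur, Lcn2 and Cd44 are red at all times, the ADAMTS list holds both colours, and Bcan is the blue row among the lecticans.

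Gene levels most like those of each of the 10 genes were found by Pearson's r of log2 CPM over the 24 libraries, among 13750 genes whose log2 CPM averaged 1 or more. The libraries share groups and depth, so these values are descriptions. Timp1 was most like Hspb6, S1pr3 and Msn (r = 0.977, 0.977 and 0.975), and Adamts1 most like Trib1, Ier3 and Tubb6 (0.965, 0.953 and 0.952). Timp4 was most like Gpr37l1, Slc4a4 and Ptprz1 (0.923, 0.921 and 0.909), Mmp14 most like Mtmr11, Ecm1 and Renbp (0.944, 0.938 and 0.937), and Mmp3 most like Odc1, Ptbp1 and Clic4 (0.943, 0.940 and 0.939). For Adamts4 they were Ppp1r15a, Pgm2 and Mapk6 (0.940, 0.899 and 0.892), and for Mmp2 Frmpd1, Rgs10 and Nol3 (0.900, 0.873 and 0.855). Timp3 came closest to Sox18, Lrch3 and Lama4 (0.821, 0.805 and 0.804), Mmp9 to Cdhr1, Sh3bp5l and Moxd1 (0.747, 0.726 and 0.716), and Timp2 to Crip2, Os9 and Samd14 (0.664, 0.650 and 0.647). By Spearman's rho or over the 8 group means other genes came first.

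Several marker lists moved with SE, and their part in the results was not tested. No astrocyte, microglial, endothelial or CA1 pyramidal marker was at 0 in any library. Astrocyte markers (6 of 6 in the table) summed to between 1424 and 1847 CPM in the controls and between 2751 and 11302 CPM after SE, with the highest range at 72 h (9684 to 11302 CPM), where Timp4 and Mmp2 were highest. The sum does not stand for each marker, since 2 of the 6 rose and 1 fell at 12 h, 2 rose and 2 fell at 24 h (median log2FC -0.12), 3 rose and 2 fell at 36 h, and 3 rose and none fell at 72 h. Replicates 1 and 2 of SE 72 h were also high in sensory ganglion markers. Oligodendrocyte precursor markers (4 of 4) had their highest range at SE 72 h too, at 400 to 615 CPM against 191 to 229 CPM in Ctr 72 h. Microglial markers (6 of 6) summed to between 262 and 356 CPM in the controls, between 167 and 239 CPM at SE 6 and 12 h, and between 844 and 1258 CPM at SE 72 h. Endothelial markers (5 of 5) summed to between 143 and 199.5 CPM in the controls and between 235 and 381 CPM after SE, with the highest range at 24 h (345 to 381 CPM), where Adamts1 and Adamts4 were highest. Oligodendrocyte markers (6 of 6) summed to between 2480 and 4404 CPM in the controls, with the lowest sum in Ctr 72 h replicate 2, where Adamts4 was also lowest. They summed to between 5488 and 5792 CPM at SE 6 h, and to 4175, 2809 and 6329 CPM in SE 24 h replicates 1, 2 and 3, the order in which Adamts4 stood in these libraries. At SE 12 h, where Adamts4 also rose, the sums were 2686, 1378 and 3881 CPM, at SE 36 h they lay between 1986 and 3329 CPM, and at SE 72 h they were 2537, 6513 and 5176 CPM, with the lowest again in the library with the least Adamts4 of its group. In Ctr 36 h the order was reversed, with sums of 3179, 3888 and 3983 CPM beside 20.0, 18.3 and 16.8 CPM of Adamts4. The orders agreed in Ctr 12 h and at SE 6, 24 and 72 h, and differed in part in Ctr 72 h and at SE 12 and 36 h. Markers of monocytes and macrophages (5 of 6) summed to between 7.15 and 43.3 CPM in the controls and between 74.8 and 148 CPM at SE 72 h, and CA1 pyramidal markers to between 302 and 667 CPM at SE 72 h against 775 to 1016 CPM in Ctr 72 h. In such bulk tissue, fewer cells of a type and less RNA per cell cannot be told apart.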

How the data were processed

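Paired-end RNA-seq of CA1 tissue from 24 mouse samples was used as deposited, as whole-number read counts per gene. Per the labels and the study's methods, the authors made these counts by trimming with Trim Galore (0.6.6), mapping to GRCm39 with STAR (2.7.8a), sorting with SAMtools (1.10) and counting with HTSeq (0.13.5) on GENCODE M26 without regard to strand, and they filtered low counts. Reads from overlapping genes on opposite strands can thus not be told apart.

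Of 18647 gene identifiers, 18552 were matched to symbols in a later GENCODE release on GRCm39 and 95 were not. Library totals (2663936 to 30133731) set the precision, and counting intervals cover counting error only. Groups came from the sample titles, no 2 libraries were identical (0 pairs), and no library was left out. After edgeR's filter on low counts, 18153 genes were fitted in R (4.3.3) with edgeR's quasi-likelihood test (4.0.16), TMM scaling, a term for each group and 1 RUVr factor (unwanted variation taken from the residuals, after the study's use of RUV). P-values were adjusted over all genes by Benjamini-Hochberg. The s.e. of a log2FC was its absolute value divided by the square root of the F statistic of its test. The 95% intervals of log2FC were built from these s.e. A call needed an adjusted p of at most 0.05 and a log2FC of at least 0.66 in size (1 between SE times, no size threshold for differences of SE effects). Scripts were tested on simulated data. Alternatives were limma-voom (limma 3.58.1), DESeq2 (1.42.0), other scaling, filters, thresholds and designs, thinned counts, and each library left out in turn. The closing section gives their effect.

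The 10 genes and all gene lists were chosen with earlier results of these data known, and 1 gene of the plasminogen list is not reported here. Named genes were the 10 genes, the 4 or fewer called genes with the largest log2FC at 12, 36 or 72 h in each list, the synapsin genes, and the 3 genes most like each of the 10 by Pearson's r. Promoter windows were read from the GRCm39 reference.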

Additional observations from a re-analysis of the deposited data

Results flagged for a closer look

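The SE effect, the log2FC of SE against control at the same time, differed between times in 3 of the 10 genes by a test of the difference itself (edgeR's quasi-likelihood test, adjusted over all genes, 3 libraries per group). The effect on Timp4 was higher at 36 h than at 12 h by 1.23 (adjusted p = 0.0287), higher at 72 h than at 12 h by 2.61 (adjusted p = 1.86e-05), and higher at 72 h than at 36 h by 1.38 (adjusted p = 0.0138). That on Mmp14 was higher at 72 h than at 12 h by 0.90 (adjusted p = 0.0199). That on Adamts1 was lower at 72 h than at 12 h, with a difference of -1.95 (adjusted p = 0.00458), and lower at 72 h than at 36 h, with a difference of -2.76 (adjusted p = 0.00276). Over all genes the median difference was 0.15 between 72 and 12 h and 0.13 between 72 and 36 h. Beside these differences, Ctr 72 h replicate 2 held 1704 CPM of sensory ganglion markers and was 1 of the 6 libraries high in them. Without these 6 libraries the Timp4 differences were 1.04 (adjusted p = 0.0433), 2.25 (adjusted p = 0.00114) and 1.21 (adjusted p = 0.112), so the last no longer passed. The Mmp14 difference was 0.92 (adjusted p = 0.0224), and those of Adamts1 were -1.92 (adjusted p = 0.0252) and -2.96 (adjusted p = 0.0173, edgeR's quasi-likelihood test).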

How the results depend on the processing

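Of 5577 values of the 10 genes under an alternative, 5441 kept their side of the threshold, and 89 lost and 47 gained the call. No value called in either fit changed its sign. The 5441 include 161 values called in neither fit whose sign did change. The number of the 10 genes called changed by over 1.5 times as follows, and the cause was not tested. Without the RUVr factor, 1 gene changed from 24 to 36 h (2 with it) and the SE effect differed between 12 and 36 h in 0 (1 with it). DESeq2 called 1 gene from 6 to 12 h (0 by edgeR) and 3 for the 36 h against 12 h effect, as did scaling by library size only (1 and 3), and limma-voom called 1 from 6 to 12 h. With only the groups compared, 4 genes changed at 72 h (7 with all groups), 1 from 12 to 24 h (4) and 0 from 24 to 36 h (2). With the range of a number in the labels (92 to 104, 109 to 122 or 162 to 169, its meaning not stated) as a factor, the counts were 4 at 72 h, 1 from 24 to 36 h, and 0, 1 and 0 for the differences of the 36 and 12 h, 72 and 12 h, and 72 and 36 h effects. All 3 Ctr 72 h libraries fell in the last range, which held 1 SE library, so range and group cannot be told apart there. Without the 6 libraries with high sensory ganglion markers, an alternative chosen after seeing the data, the counts were 4 at 72 h, 4 for the 36 h against 12 h effect and 1 for the 72 h against 36 h effect, and the lone SE 72 h library was assumed to vary like the other groups.

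Leaving out each library in turn, the calls among the 10 genes numbered 5 to 7 for 12 h, 4 to 5 for 36 h, 4 to 7 for 72 h, 4 to 6 for 6 h and 6 to 7 for 24 h. Steps gave 0 to 1 from 6 to 12 h, 3 to 4 from 12 to 24 h, 2 to 3 from 24 to 36 h and 3 to 4 from 36 to 72 h. The differences of effects gave 0 to 2 (36 and 12 h), 2 to 4 (72 and 12 h) and 2 to 3 (72 and 36 h), and control pairs 0.

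Over all genes, 3530 changed at 72 h, with 1520 to 3790 over the alternatives that kept the thresholds. Such counts were 2477 to 4242 for 6 h (3994), 2627 to 4628 for 24 h (4377), 0 to 411 from 6 to 12 h (244), 46 to 854 from 12 to 24 h (578), 1 to 292 from 24 to 36 h (96) and 371 to 928 from 36 to 72 h (750). They were 211 to 1461 (696), 1612 to 4605 (4028) and 136 to 1910 (972) for the differences of effects, and 0 to 1188 (169) and 0 to 1520 (358) for Ctr 72 h against Ctr 12 h and Ctr 36 h.

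The labels do not state that replicate numbers pair the samples. Same-numbered SE and control libraries had correlations of deviations of 0.0821, 0.181 and -0.00172 at 12 h and 0.157, 0.0315 and 0.172 at 36 h. At 72 h they were -0.201, 0.0627 and 0.162. Those of different-numbered libraries of the same time ran from -0.299 to 0.252, so these values show no clear pairing and cannot exclude one. With a replicate block the counts of calls were as without it, except 6 in place of 7 at 72 h, where Mmp3 had adjusted p = 0.0568 (edgeR's quasi-likelihood test). By Spearman's rho or over group means, the gene most like each of the 10 differed in 20 of 20 cases. Counts were lowest for Mmp3, Mmp9, Mmp2 and, in the controls, Timp1, which limits the precision of their values.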
